A study of Mus musculus with 20 samples.

Results

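Amyotrophic lateral sclerosis (ALS) is a fatal disease of motor neurons, and mutations in many different genes can cause it or contribute to it. The 9 genes described here were picked by name from those genes, and the rule used no measured value: *Sod1*, *Tardbp*, *Matr3*, *Atxn2*, *Vcp*, *Ubqln2*, *Sqstm1*, *Optn* and *Tbk1*. The choice was made with earlier results of these data known. All 9 had counts in the table of total and polysomal RNA, which holds 14924 genes. A total of 7 had counts of 3′ ends, in a table of 9621 genes, and 5 had a binding window of HuD, in a table of 1425 genes. *Matr3* and *Atxn2* had no line in the 3′ end table used here.

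HuD, the product of *Elavl4*, is a neuronal RNA-binding protein of the ELAV family that binds U-rich stretches, most often in 3′ UTRs, and is known to act on the stability and translation of its target mRNAs. The cells were NSC-34, a mouse hybrid line of motor neuron and neuroblastoma origin. In the CRAC experiment, both Trex-HuD cells (HuD cells) and Trex cells that lack the transgene (control cells) received 10 µg/ml tetracycline for 24 h per the labels, with 3 libraries of each. The study's text also names doxycycline at another dose and time for CRAC, and which was used was not settled. In RNA-Seq (total RNA), POL-Seq (polysomal RNA) and 3′ end sequencing, Trex-HuD cells were induced for 48 h with 2 µg/ml tetracycline, and what the control cells received is not given in the labels. These experiments had 2 libraries of each kind of cell in total RNA, 2 in polysomal RNA and 3 in 3′ end sequencing. HuD came from a human cDNA with a His-HA tag. The expression of HuD was driven by a CMV promoter under the Tet repressor in cells transduced with lentivirus. Libraries of total and polysomal RNA were biological duplicates and those of 3′ ends biological triplicates, and whether these were separate cultures is not given, so the p-values measure the spread between these libraries.

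The proteins of the 9 genes fall into groups by what they do. Superoxide dismutase 1 (*Sod1*) clears superoxide from the cytosol. TDP-43 (*Tardbp*) and matrin 3 (*Matr3*) are nuclear RNA-binding proteins that act in splicing, and ataxin 2 (*Atxn2*) is a cytoplasmic partner of the poly(A)-binding protein. The other proteins serve protein clearance. VCP is an ATPase that pulls ubiquitinated proteins out of complexes, ubiquilin 2 (*Ubqln2*) carries ubiquitinated proteins to the proteasome, p62 (*Sqstm1*) and optineurin (*Optn*) are receptors of selective autophagy, and TBK1 is the kinase that phosphorylates these receptors.

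CRAC maps the bases at which a protein was crosslinked to RNA, from the deletions that reverse transcription leaves there. The windows found in the 3′ UTRs of 4 of the 9 mRNAs are shown first, because they mark where HuD was crosslinked to these mRNAs. Capitals mark the 7-nt window, the flanks are from GENCODE vM21 transcripts (GRCm38), and all are written 5′ to 3′ on the mRNA strand.
Tardbp, chr4:148617611-148617617, minus strand: ucugucuacauGCUUUCUcauccaagaauu
Vcp, chr4:42980326-42980332, minus strand: aaaauaaaaguGAUUUUCauuugggaggug
Ubqln2 at 280 nt, chrX:153500650-153500656, plus strand: cuuccuucucuGAUUUGAauggugggaauc
Ubqln2 at 515 nt, chrX:153500885-153500891, plus strand: ugaagcucucuAAUUUGUgguaaaauauug
Ubqln2 at 1068 nt, chrX:153501438-153501444, plus strand: gugucaugugaUGUUUGCauuacuuuuaac
Sqstm1, chr11:50200448-50200454, minus strand: cugacaacccgUGUUUCCuuuauuaaaagu
Each of the 6 windows had UUU in its middle. The base before UUU was A in 3 windows, G in 2 and C in 1. UUU at positions 3 to 5 was also found in 97.2% of the 2480 windows of 7 nt on all protein coding genes. The authors listed only windows whose sequence score passed a threshold, so this feature was in part selected for.

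HuD windows were listed on 5 of the 9 genes, against 9.92% of the 12923 protein coding genes with RNA-Seq counts and a length. Of 32 other ALS genes with counts, taken up below, 3 had a window, and the 9 genes were chosen with earlier results known. The listed genes among the 9 were *Tardbp*, *Vcp*, *Ubqln2*, *Sqstm1* and *Matr3*, and no window was listed on *Sod1*, *Optn*, *Tbk1* or *Atxn2*. Windows were listed more often on abundant mRNAs: of 4 equal bins of genes by control CPM (gene counts scaled to library size), the highest had windows on 23.6% of genes and the others on 10.4%, 4.33% and 1.33%. The highest bin held 7 of the 9 genes, 5 of them listed, the next held *Optn* and *Atxn2*, and the lower bins held 0 of the 9. The authors pooled the CRAC replicates, so coverage has no replicate error, and its library depth is unknown.

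In *Ubqln2*, 3 separate windows lay in a 3′ UTR of 1200 nt. The window at 280 nt after the stop codon had 18 reads and 9 deletions, that at 515 nt had 8 reads and 4 deletions, and that at 1068 nt had 10 reads and 3 deletions. Of 1304 protein coding targets, 19.2% had 3 or more windows, and *Ubqln2* was the only one of the 9 genes among them. Its summed coverage of 36 reads placed it 560th among the targets.

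*Sqstm1* had a single window, 336 nt after the stop codon in a 3′ UTR of 638 nt, with 38 reads and 7 deletions. Its 7-nt sequence was listed in 4 windows of the table, against 10 to 20 for the other 5 sequences shown. The *Vcp* window lay 197 nt into a 3′ UTR of 566 nt and had 19 reads and 5 deletions. The *Tardbp* window lay 644 nt after the stop codon, with 13 reads and 6 deletions, and was listed for 19 transcripts of the gene. Over the 2598 windows on protein coding genes, the median was 26.0 reads and 5.0 deletions, and of the 6 windows in 3′ UTRs only that of *Sqstm1* exceeded this coverage.

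*Matr3* differed in where the window lay. It was annotated to the 5′ UTR, at chr18:35571893-35571899 of the plus strand, 124 nt before the start codon, with 55 reads and 3 deletions. Only 2.77% of the 2566 windows with an annotated region lay in a 5′ UTR, against 92.0% in a 3′ UTR and 5.18% in coding sequence, where the 9 genes had 0. The same window is also listed for *Gm28285*, a gene on the same strand whose exons overlap those of *Matr3*, so the reads cannot be given to one of them alone. Its deletions equaled the lowest number in the table.

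None of the 7 windows had any read in control CRAC cells, as for all but 3.7% of windows on protein coding genes. The authors penalized positions with control reads when they listed windows, so this was in part set by the selection. None of the 7 windows reached a combined p-value under 0.05, by the authors' test of coverage and deletions without adjustment, against 20.9% of windows. The lowest p-values of a window were 0.0792 for *Sqstm1* and 0.0797 for that of *Ubqln2* at 280 nt, and the highest was 0.368 for that of *Ubqln2* at 1068 nt. The sequence scores of the windows lay between 0.82 (*Sqstm1*) and 0.94 (*Matr3*). Summed per gene, coverage ranked 429th for *Matr3*, 543rd for *Sqstm1*, 773rd for *Vcp* and 919th for *Tardbp*.

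The 3′ UTRs differ widely in how many places resemble a listed window. Counted on the sense strand with overlaps, 230 different 7-nt sequences of the table occurred at 194 positions of the 5879-nt 3′ UTR of *Tardbp* and at 141 of the 3405 nt of *Matr3*. *Ubqln2* had 50 positions, *Tbk1* 27, *Atxn2* 19, and *Vcp*, *Sqstm1* and *Optn* 15 each. The 72-nt 3′ UTR of *Sod1* had 0. The median over 12780 protein coding genes was 22.0 positions, with 49.0 among those with a listed window. The median 3′ UTR was 944 nt over all of them and 1543 nt among those with a listed window. The sequences were taken from these same windows, so the count favors genes with a window. The long 3′ UTR of *Matr3* thus held many such sequences and no listed window, and *Tbk1*, without a window, held more than *Vcp* or *Sqstm1*. Such a match is a description of the sequence and not a site of binding. The counts use annotated 3′ UTRs. In *Tardbp*, the end at 1398 nt held 89.6% of 3′ end reads in control cells (sites within 20 nt merged). Most of its mRNA thus lacks the later positions. *Matr3* had no 3′ end counts, so how much of its 3′ UTR was used is unknown.

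**Figure D1:**
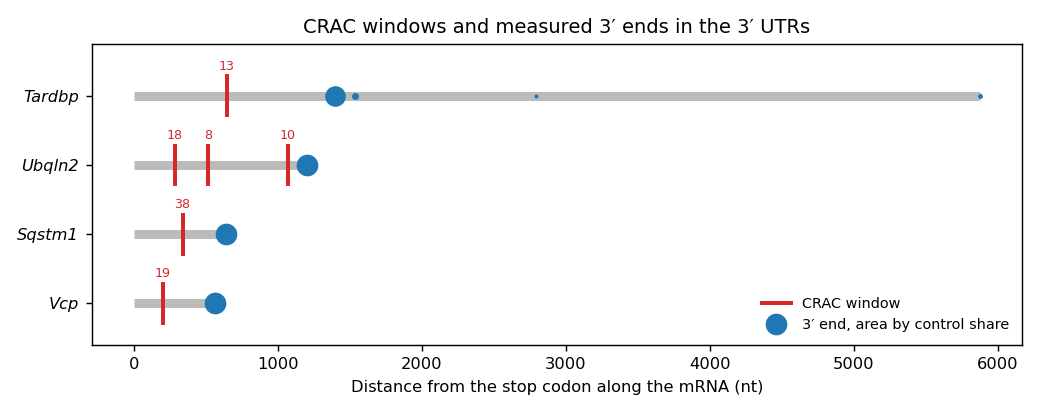
Position of CRAC windows (red, with coverage in reads) and of measured 3′ ends (blue, area by the mean share of the gene's 3′ end reads in control cells, with only the largest of ends within 20 nt kept) along the 3′ UTR (gray), in nt from the stop codon. All 6 windows lie before every measured 3′ end of their gene, and in Tardbp the main end lies at 1398 nt of 5879 nt.

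The genes lie apart from each other in the genome (GRCm38, GENCODE vM21 spans). *Sod1* is at chr16:90220742-90226322, *Tardbp* at chr4:148612382-148627019, *Matr3* at chr18:35562146-35593835 and *Atxn2* at chr5:121711337-121816493. *Vcp* is at chr4:42979963-43000507, *Ubqln2* at chrX:153498227-153501570, *Sqstm1* at chr11:50199366-50210827, *Optn* at chr2:5020642-5064051 and *Tbk1* at chr10:121546455-121586794. In control total RNA, the 9 genes spanned a wide range of levels. Levels are given as FPKM, that is CPM per kilobase of all exons of the gene, as mean ± SD of 2 libraries. *Sod1* was highest with 151 ± 7.06, followed by *Sqstm1* with 85.2 ± 6.30, *Tardbp* with 56.1 ± 6.99 and *Ubqln2* with 55.1 ± 5.17. *Vcp* had 36.8 ± 7.55, *Tbk1* 27.9 ± 0.773 and *Matr3* 13.7 ± 1.46. *Optn* had 9.43 ± 0.0709 and *Atxn2* 5.16 ± 0.591. Of neighbors in this order, only *Tardbp* and *Ubqln2* overlapped between libraries. *Sod1* was above 97.7% of protein coding genes and *Atxn2* above 42.8%. The order depends on the length used. Per length of the transcript with the longest coding sequence, an alternative chosen after seeing the data, *Sod1* had 936 ± 43.7. *Atxn2* with 18.1 ± 2.07 then lay above *Optn* with 13.5 ± 0.102, whereas the order of the other genes was the same. Both lengths hold the full 5879-nt 3′ UTR of *Tardbp*, but its main 3′ end lay at 1398 nt, so its place in the order is uncertain.

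**Figure D2:**
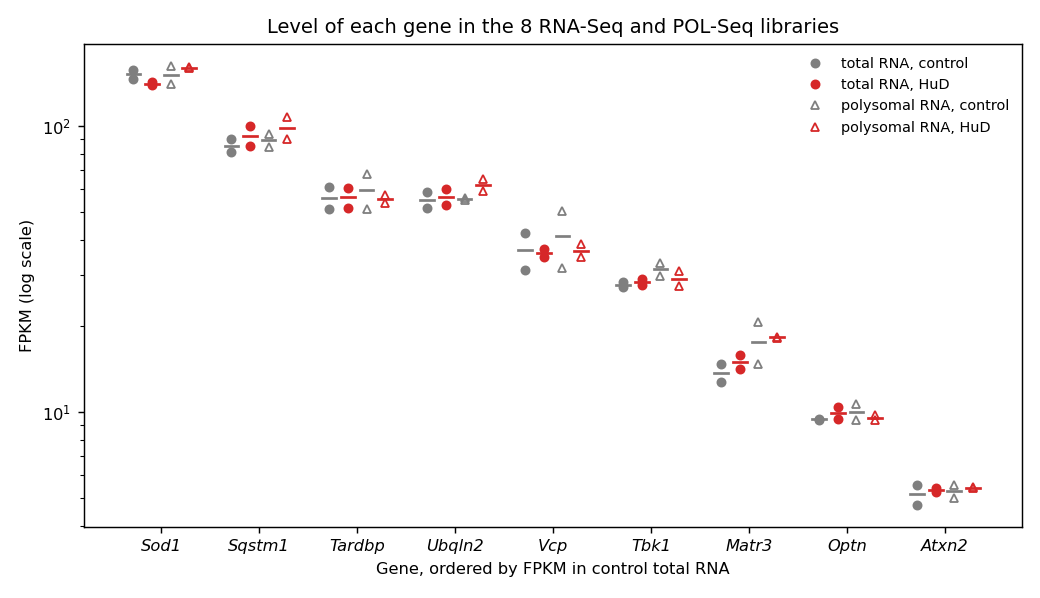
FPKM of the 9 genes (log scale) in each library, with total RNA as circles, polysomal RNA as triangles, control in gray, HuD in red and the mean of 2 libraries as a bar. The genes run from Sod1 (151 FPKM in control total RNA) to Atxn2 (5.16 FPKM), and within a gene the 4 groups lie close together.

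The libraries held 21296012 to 36284728 counts for total and polysomal RNA and 12986862 to 15751036 for 3′ ends. *Elavl4* counts were higher in HuD cells, with 78.3 and 97.4 CPM in control total RNA and 237 and 212 CPM in HuD total RNA, to the extent that reads of the human cDNA align to the mouse gene. Its log2 change was 1.35 ± 0.15 in total RNA (edgeR adjusted p = 0.0866) and 1.17 ± 0.15 in polysomal RNA (edgeR adjusted p = 0.282), so the induced gene itself did not pass the adjusted threshold. Its 3′ end counts were 78.1, 38.5 and 78.1 CPM in control and 54.6, 31.4 and 52.4 CPM in HuD cells, lower in each same-numbered pair, and the human cDNA lacks the mouse 3′ end, so they do not check the transgene. Of motor neuron markers, *Isl1* was at 34.7 to 47.3 CPM and *Prph* at 1031 to 1354 CPM over the 8 libraries, while *Chat* stayed at 0.449 to 0.608 CPM and *Mnx1* had no line in the table used here. All 3 fibroblast and all 4 microglia markers had no line either, and *Gfap* of astrocytes was below 1 CPM. The 2 control polysomal libraries differed from each other more than the 2 HuD polysomal libraries did (chi-square per gene of 38.9 and 7.91, where 1 is sampling noise), and so did the 2 HuD total RNA libraries (39.6). Results that turn on control polysomal replicate 1 are given with and without it. In bulk RNA, fewer cells with an mRNA and less of it per cell cannot be told apart.

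Whether HuD changes the amount of these mRNAs was asked in total RNA. None of the 9 genes passed an adjusted p-value of 0.05 in edgeR's quasi-likelihood test, none of the 14906 genes tested did (0.0%), and none of the 9 was under an unadjusted 0.05, where 394 of all genes were (2.64%). DESeq2 called none of the 9 and 1 gene in all. The log2 changes lay between -0.11 (*Sod1*) and 0.12 (*Matr3*), with a median of 0.04 for the 9 genes and of -0.00 for all genes. The change was above 0 in 7 of the 9 genes and in 48.7% of all genes. All 9 lay between the 5th and the 95th percentile of all genes, -0.23 and 0.39. The 95% confidence intervals reached as low as -0.48 and as high as 0.46, that is from 0.715-fold for *Vcp* to 1.38-fold for *Matr3*.

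*Sod1* was counted at 619.7 and 580.1 CPM in control total RNA and at 563 and 552 CPM in HuD total RNA. Both HuD libraries were below both control libraries, which was so for 16.7% of all genes (15.1% were higher without overlap, 0 of the 9 among them), and *Sod1* was the only one of the 9 without overlap in total RNA. Its log2 change was -0.11 ± 0.10 (SE, edgeR adjusted p = 1.00). *Sqstm1* was at 301 and 271 CPM in control and at 335 and 285 CPM in HuD cells, a log2 change of 0.12 ± 0.12. *Matr3* was at 129 and 149.9 CPM in control and at 143 and 161 CPM in HuD cells. In both genes, the lower HuD library lay between the controls. *Tardbp* was at 398 and 476 CPM in control and at 404 and 474 CPM in HuD cells, a log2 change of 0.01 ± 0.15, and the libraries of each group differed from each other more than the groups did. *Vcp* was at 152 and 204 CPM in control and at 168 and 180.2 CPM in HuD cells, again with a wide spread between controls. *Ubqln2* was at 172 and 196 CPM in control and at 202 and 176 CPM in HuD cells, a log2 change of 0.04 ± 0.10. *Tbk1* was at 107 and 111 CPM in control and at 114 and 108 CPM in HuD cells, a log2 change of 0.03 ± 0.09. The less abundant *Optn* was at 35.2 and 35.6 CPM in control and at 39.1 and 35.4 CPM in HuD cells, a log2 change of 0.07 ± 0.09. *Atxn2* was at 74.3 and 87.4 CPM in control and at 82.2 and 85.4 CPM in HuD cells, a log2 change of 0.05 ± 0.10. In each of these 4 genes the groups overlapped.

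In polysomal RNA, the mRNA engaged with ribosomes, none of the 9 genes passed the adjusted threshold either, as none of 14906 genes did (0.0%) in edgeR. None of the 9 and 622 of all genes (4.17%) were under an unadjusted 0.05. DESeq2 called none of the 9 and 3 genes in all. Log2 changes ran from -0.17 (*Vcp*) to 0.17 (*Ubqln2*), with a median of 0.04 against -0.01 for all genes. They were above 0 in 5 of 9, against 48.4% of all genes. *Ubqln2* was at 184 and 187 CPM in control and at 219 and 197 CPM in HuD polysomal RNA. It was the only one of the 9 whose HuD libraries were both higher, as for 14.1% of all genes, and none was lower without overlap, as 14.6% of all genes were. It had a log2 change of 0.17 ± 0.10 (95% interval -0.07 to 0.40, edgeR adjusted p = 0.969), which was 0.090 without HuD replicate 1 and 0.24 without HuD replicate 2. *Vcp* was at 155 and 244 CPM in control polysomal RNA and at 168 and 187 CPM in HuD cells, so that the HuD libraries lay between the controls. *Tardbp* showed the same order, with 399 and 529 CPM in control and 419 and 446 CPM in HuD cells. The other genes also overlapped between groups. *Sod1* was at 642 and 556 CPM in control and at 634 and 630.1 CPM in HuD polysomal RNA, and *Sqstm1*, the autophagy receptor with a HuD window, at 314 and 283 CPM and at 359.5 and 301 CPM. *Tbk1* was at 117 and 129.7 CPM in control and at 121 and 107 CPM in HuD cells, and *Matr3* at 148.9 and 209 CPM and at 184.5 and 185 CPM. *Optn* and *Atxn2* had the lowest polysomal FPKM of the 9. *Optn* was at 35.1 and 40.0 CPM in control and at 36.5 and 35.2 CPM in HuD cells, and *Atxn2* at 78.8 and 87.3 CPM and at 84.8 and 85.5 CPM.

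The values of *Vcp*, *Tardbp* and *Matr3* depended on which control polysomal library was used. Without control replicate 1, the log2 change in polysomal RNA was -0.46 for *Vcp*, -0.29 for *Tardbp* and -0.18 for *Matr3*. Without control replicate 2, it was 0.21, 0.12 and 0.32. No gene of the 9 was called in either case, while the number of genes called among all was 372 (2.49%) without control replicate 1 and 1 without control replicate 2.

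Translation efficiency (TE) is the ratio of polysomal to total RNA, and its change with HuD was tested as an interaction in a fit of all 8 libraries. Libraries were scaled to each other (TMM), so TE and the polysomal changes above are relative to the typical gene. A shift shared by all mRNAs, such as the rise in global TE with HuD that the authors report, would not show in them. None of the 9 genes was called, and none of 14906 (0.0%) in edgeR or DESeq2. None of the 9 and 146 of all genes (0.979%) were under an unadjusted 0.05. Log2 changes ran from -0.14 (*Tbk1* and *Optn*) to 0.18 (*Sod1*), and 3 of 9 were above 0, against 48.2% of all genes. For *Sod1*, the change was 0.18 ± 0.14 (95% interval -0.13 to 0.49, edgeR adjusted p = 1.00), and 0.087 without control polysomal replicate 2 and 0.29 without control polysomal replicate 1. The intervals were wider than for either RNA alone, the widest being that of *Vcp*, from -0.77 to 0.51. Of the autophagy genes, *Sqstm1* had 0.03 ± 0.17, *Optn* -0.14 ± 0.13 and *Tbk1* -0.14 ± 0.13. The 5 genes with a HuD window had changes of 0.13 (*Ubqln2*), 0.03 (*Sqstm1*), -0.08 (*Matr3*), -0.11 (*Tardbp*) and -0.13 (*Vcp*), and the 4 without one had changes of 0.18 (*Sod1*), -0.01 (*Atxn2*), -0.14 (*Optn*) and -0.14 (*Tbk1*). These 2 sets overlapped in range. Without control polysomal replicate 1, 47 genes were called for TE (0.315%), none of the 9 among them, and the change of *Vcp* was -0.42, against 0.24 without control polysomal replicate 2.

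**Figure D3:**
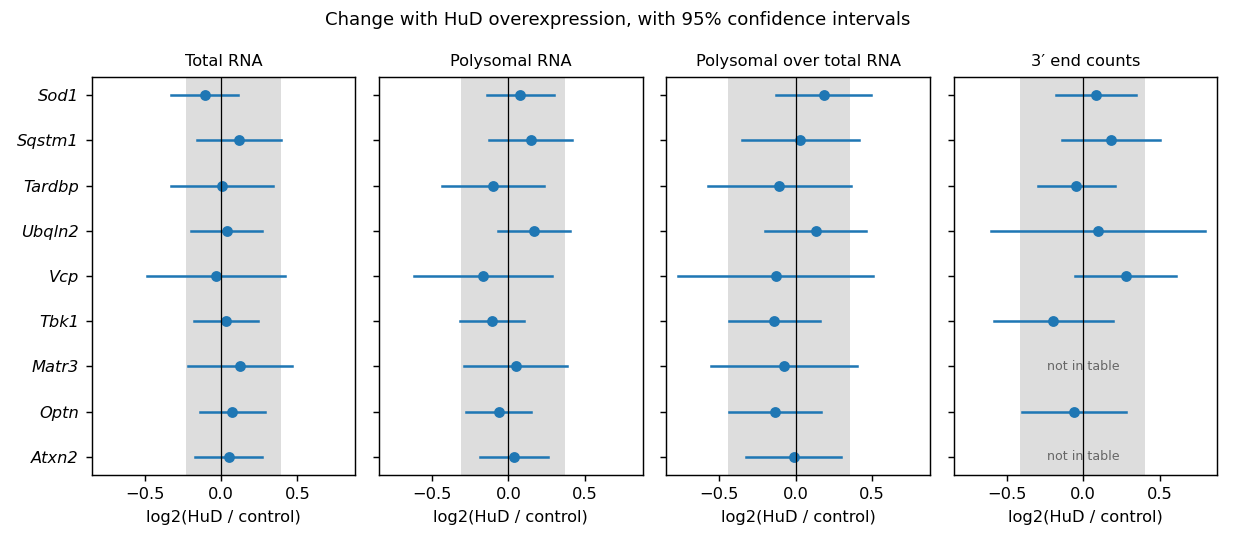
Log2 change with HuD of each gene in total RNA, polysomal RNA, their ratio and 3′ end counts, as point with 95% confidence interval, and the range from the 5th to the 95th percentile of all genes in gray. Every interval includes 0, and the widest are those of Vcp for the ratio and of Ubqln2 for 3′ ends.

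How the mRNAs divide between polysomes and total RNA was compared within each kind of cell. These ratios too are relative to the typical gene and do not give the fraction of an mRNA on polysomes. In control cells, no gene of the 9 passed the adjusted threshold in edgeR, against 26 of 14906 genes (0.174%), and DESeq2 called none of the 9 and 67 in all. *Matr3* had the highest ratio of the 9, with 129 and 149.9 CPM in total and 148.9 and 209 CPM in polysomal RNA. Its log2 ratio was 0.36 ± 0.15 (95% interval 0.02 to 0.70), above 96.3% of genes, and was the only one of the 9 under an unadjusted p of 0.05 (edgeR adjusted p = 0.462), where 10.7% of all genes were. In HuD cells, its values were 143 and 161 CPM in total and 184.5 and 185 CPM in polysomal RNA, without overlap. The log2 ratio there was 0.28 ± 0.15 (edgeR adjusted p = 0.504), above 94.0% of genes. With only the 4 libraries compared fitted, the ratio of *Matr3* was 0.35 ± 0.17 in control cells (edgeR adjusted p = 0.748). In HuD cells it was then 0.28 ± 0.08 (edgeR adjusted p = 0.101).

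Whether *Matr3* passed the threshold depended on a single library. Without control polysomal replicate 1, the log2 ratio of *Matr3* in control cells was 0.58 ± 0.11 (edgeR adjusted p = 0.0105), and 2145 of all genes (14.4%) were called, with control polysomal replicate 2 assumed to vary like the other groups. Without control polysomal replicate 2, the ratio was 0.09 and 27 genes were called. Exons of *Gm28285* overlap those of *Matr3* on the same strand, and their part in the *Matr3* count was not tested.

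Of the other genes, *Tbk1* was at 107 and 111 CPM in control total RNA and at 117 and 129.7 CPM in control polysomal RNA, without overlap, as were 18.9% of all genes in that direction and 20.1% in the other, with 0 of the 9. Its log2 ratio was 0.18 ± 0.09 in control cells and 0.04 ± 0.09 in HuD cells. In HuD cells, none of the 9 was called by edgeR, against 80 of all genes (0.537%), and DESeq2 called none of the 9 and 239 in all. *Sod1* was at 563 and 552 CPM in total and at 634 and 630.1 CPM in polysomal RNA of HuD cells, and together with *Matr3* was without overlap, as 25.3% of all genes were in that direction and 24.5%, with 0 of the 9, in the other. None of the 9 and 12.4% of all genes were under an unadjusted 0.05. The log2 ratio of *Sod1* was 0.18 ± 0.10 in HuD cells (edgeR adjusted p = 0.514) and -0.00 ± 0.10 in control cells. The ratios of the remaining genes lay between -0.05 (*Optn*, HuD cells) and 0.16 (*Vcp*, control cells). The median over the 9 genes was 0.08 in control and 0.04 in HuD cells, against 0.01 in both for all genes. Ratios were above 0 in 8 of 9 genes in control cells and in 7 of 9 in HuD cells, against 51.7% and 51.3% of all genes.

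**Figure D4:**
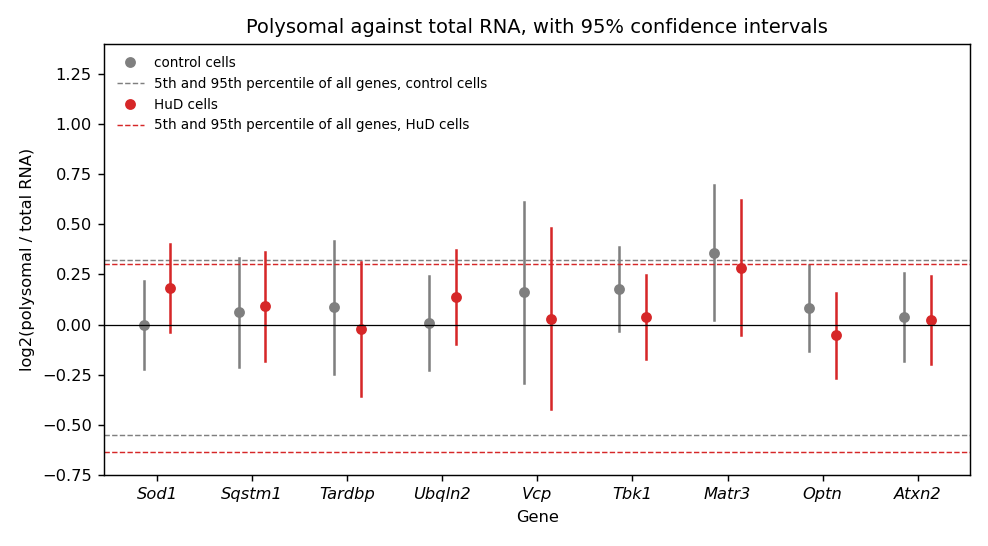
Log2 ratio of polysomal to total RNA for each gene in control (gray) and HuD cells (red), as point with 95% confidence interval, and the 5th and 95th percentiles of all genes as dashed lines. Matr3 in control cells is the only point above the 95th percentile and the only one whose interval excludes 0.

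The 3′ end libraries count reads at known polyadenylation sites. In control cells, *Sod1* had 941 ± 53.6 CPM (SD, n = 3), *Tardbp* 582 ± 32.1, *Sqstm1* 317 ± 14.8 and *Vcp* 158 ± 18.0. *Tbk1* had 43.8 ± 6.06, *Optn* 41.5 ± 3.90 and *Ubqln2* 31.7 ± 10.3. The 3′ end level of *Ubqln2* was thus the lowest of the 7, although its FPKM in control total RNA was above those of *Tbk1* and *Optn*. Counts of *Tardbp* and *Optn* are sums over listed sites that can lie within 20 nt of each other and share reads.

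None of the 7 genes passed the adjusted threshold with HuD in 3′ end counts, against 5 of 9621 genes (0.052%) in edgeR, and none was under an unadjusted 0.05, where 565 of all genes were (5.87%). DESeq2 called none of the 7 and 35 in all. *Vcp* had the highest change, with 152, 179 and 144 CPM in control replicates 1, 2 and 3 and 175, 224 and 176 CPM in HuD cells. Each HuD library was above the control of the same number, and the groups overlapped. None of the 7 was without overlap, as 6.23% of all genes were in the higher and 5.81% in the lower direction, and 4 of 7 changes were above 0, against 50.1% of all genes. The log2 change of *Vcp* was 0.28 ± 0.15 (95% interval -0.05 to 0.61, edgeR adjusted p = 0.882). Same-numbered 3′ end libraries deviated together, and with the number as a block 217 genes were called (2.26%), with *Vcp* at 0.27 ± 0.08 (edgeR adjusted p = 0.0848) and none of the 7 among them. *Tbk1* had 46.2, 36.9 and 48.2 CPM in control and 46.1, 34.6 and 34.0 CPM in HuD cells, a log2 change of -0.20 ± 0.17. Each HuD library of *Tbk1* was below the control of the same number, with nearly equal values in replicate 1, and the groups overlapped. *Ubqln2* had 40.4, 34.2 and 20.4 CPM in control and 30.4, 48.4 and 22.9 CPM in HuD cells, and its interval, from -0.60 to 0.80, was the widest of the 7. *Sqstm1* had 315, 303 and 332 CPM in control and 395, 289 and 391 CPM in HuD cells, a log2 change of 0.18 ± 0.14, with HuD replicates 1 and 3 above and replicate 2 below all controls. *Sod1* had 879, 971 and 973 CPM in control and 947.5, 935 and 1103 CPM in HuD cells, a log2 change of 0.08 ± 0.12. *Tardbp* had 566, 560.5 and 619 CPM in control and 536, 545 and 608 CPM in HuD cells, a log2 change of -0.05 ± 0.11. In *Tardbp*, each HuD library was below the control of the same number. *Optn* had 42.3, 37.2 and 44.9 CPM in control and 40.5, 34.0 and 44.6 CPM in HuD cells, a log2 change of -0.06 ± 0.15, again lower in each same-numbered pair and overlapping between groups. The share of all genes with the same direction in every same-numbered pair was not counted, so this pattern is only a description.

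Only reads at known sites were counted, so ends elsewhere were not measured. A single site was listed for *Sod1*, *Vcp*, *Ubqln2*, *Tbk1* and *Sqstm1*, while *Optn* had 3 and *Tardbp* 9, which were 2 and 4 after sites within 20 nt were merged. Merging kept the site with the most reads and dropped its neighbors, and shares were taken over the kept sites. In *Tardbp*, the main end lay 1398 nt after the stop codon and held 89.6% ± 2.56 of 3′ end reads in control and 88.7% ± 4.17 in HuD cells (SD, n = 3, merged sites). Over all 9 listed sites, its share was 75.3% ± 4.67 in control and 74.1% ± 7.80 in HuD cells. An end at 1540 nt held 6.74% ± 0.841 and 6.84% ± 1.83, and one at 2795 nt held 1.22% ± 0.527 and 1.39% ± 0.689. The most distal end, at 5879 nt, held 2.49% ± 1.19 in control and 3.08% ± 1.76 in HuD cells.

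The share of the distal *Tardbp* end varied with the replicate number. In replicate 2 it held 1.14% of reads in control and 1.11% in HuD cells. In replicate 1 it held 2.91% and 4.49%, and in replicate 3 3.41% and 3.65%. Replicate 2 was thus low in both groups, and the groups overlapped. Replicate 2 also stood apart over all genes, with a chi-square per gene of 28.9 to 55.9 against the other libraries of its group, compared with 12.1 and 13.2 between replicates 1 and 3. In the test of site usage, neither *Tardbp* nor *Optn* was called, against 1 of 3317 genes (0.0301%), and none of them was under an unadjusted 0.05, where 6 genes were (0.181%). The log2 difference in usage of the distal *Tardbp* end was 0.27 and 0.25 with the replicate number as a block (edgeR adjusted p = 1.00 in both). It was -0.05 without control replicate 2 and 0.64 without HuD replicate 2 (edgeR adjusted p = 1.00). In *Optn*, the kept site at its annotated end held 95.8% ± 1.17 of reads at merged sites in control and 95.4% ± 1.36 in HuD cells. All 9 *Tardbp* ends lay downstream of its HuD window, the nearest by 754 nt and the farthest by 5235 nt.

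**Figure D5:**
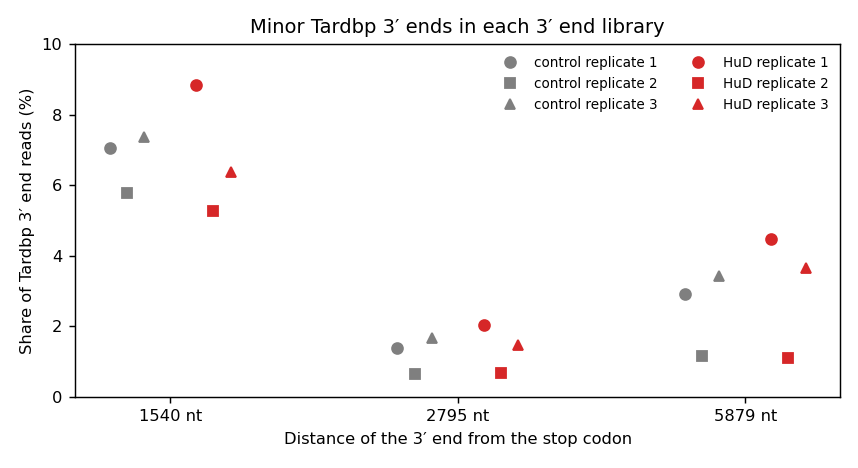
Share of Tardbp 3′ end reads (%, merged sites) at the 3 minor ends, by their distance from the stop codon, in the 3 control (gray) and 3 HuD libraries (red), with the replicate number as symbol. Replicate 2 (squares) is lowest at each end in both groups, for example 1.14% and 1.11% at 5879 nt.

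Some of these genes have a related or overlapping gene in the count table. *Vcp-rs*, a gene named as related to *Vcp*, had 8.62% to 10.2% as many counts as *Vcp* over the 8 libraries, and whether reads were split between them was not tested. *Tardbp* overlaps *Masp2*, *Sqstm1* overlaps *Mrnip* and *Atxn2* overlaps *Sh2b3* in exons on the opposite strand, and whether the counts used the strand is not given in the sources used here.

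The partners and relatives of these genes were read from wider lists. They held 107 genes, 104 of them with counts: other ALS genes, autophagy receptors and LC3 proteins, TBK1 partners, VCP cofactors, ubiquilins, peroxide defense, and partners of ataxin 2, TDP-43 and matrin 3. None of the 104 was called by edgeR with HuD in total RNA, in polysomal RNA or in TE, and 2, 5 and 0 were under an unadjusted 0.05, where 2.64%, 4.17% and 0.979% of all genes were. Of 84 in the 3′ end table, none was called and 3 were under an unadjusted 0.05, against 5.87% of all genes. DESeq2 called none of them in these 4 comparisons. The only call within the lists by either tool was on *Pabpc1*, the poly(A)-binding protein that binds ataxin 2. Relative to the typical gene, *Pabpc1* was lower in polysomal than in total RNA. Its log2 ratio was -0.68 ± 0.10 in control cells (edgeR adjusted p = 0.0472) and -0.93 ± 0.10 in HuD cells (edgeR adjusted p = 0.00839). Its call in control cells was lost on leaving out any library but control polysomal replicate 1 (edgeR adjusted p up to 0.477), and when only the 4 libraries compared were fitted (edgeR adjusted p = 0.578), while the log2 ratio on leaving out a library stayed between -0.73 and -0.62. In HuD cells, it was lost on leaving out any of the 4 libraries compared (edgeR adjusted p up to 0.248), with log2 ratios between -1.01 and -0.84, and held when only these 4 were fitted (-0.93, edgeR adjusted p = 0.00145).

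HuD windows were listed on 27 of the 104 genes, against 9.92% of all protein coding genes. Most of the 104 were abundant: 61 lay in the highest of the 4 CPM bins, where 21 had a window (23.6% of all genes there), and 4 of 19, 2 of 19 and 0 of 5 had one in the lower bins (10.4%, 4.33% and 1.33% of all genes). Among partners of the RNA-binding group, 9 of 19 had one, led by *Hnrnpa3* with 753 reads over 8 windows, *Hnrnpa1* with 553 over 6, *Pabpc1* with 298 over 1 and *Hnrnpc* with 294 over 6, which all bind RNA. Of the autophagy list, 6 of 12 had one, with *Gabarapl2* at 489 reads over 6 windows, *Map1lc3b* at 67 over 2, *Gabarap* at 56 and *Nbr1* at 18. Other ALS genes with windows were 3 of 32, *Hnrnpa1*, the actin-binding *Pfn1* with 266 reads over 2 windows and *Hnrnpa2b1* with 44. VCP cofactors with windows included *Derl2* with 26 reads, *Ubxn2b* with 10 and *Nploc4* with 8. Peroxide defense had 3 of 12 (*Prdx1* with 56 reads, *Sod2* with 40, *Prdx3* with 29), ubiquilins and shuttles 2 of 6 (*Rad23b* with 38, *Ubqln1* with 15) and TBK1 partners 2 of 9 (*Rab7* with 26, *Tank* with 13).

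Across the 8 libraries of total and polysomal RNA, *Matr3*, *Vcp* and *Tardbp* had the widest ranges of the 9 genes, at 0.70, 0.68 and 0.41 on the log2 CPM scale. The gene most like *Matr3* among 14905 others was *Ythdc1*, with a Pearson r of 0.993. For *Vcp* it was *Kpna2* with 0.987, and for *Tardbp* it was *Morc2a* with 0.982. These are descriptions over 8 libraries that share their depth and fraction, picked as the highest of many.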

How the data were processed

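Total RNA (RNA-Seq), polysomal RNA (POL-Seq), 3′ ends (QuantSeq REV) and CRAC were measured in NSC-34 cells. Reads of total and polysomal RNA were aligned by the authors to GRCm38.p4 with STAR 2.5.3a and deposited as raw counts per gene (Gencode M6), with 21296012 to 36284728 counts per library. For 3′ ends, the authors counted reads that began within 10 nt of known polyadenylation sites and deposited these counts per site (12986862 to 15751036 per library), so that reads at neighboring sites can count more than once. For CRAC, per the authors' methods, reads were collapsed, aligned with TopHat2 2.0.14 and pooled over replicates, and the deposited table holds coverage and deletion counts, a position weight matrix score and an unadjusted combined p-value per window. Windows needed at least 6 reads, 3 deletions and a sequence score above a threshold, and positions with control reads were penalized. Total reads are unknown.

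Counts were tested with edgeR 4.0.16 (TMM, filterByExpr, quasi-likelihood, Benjamini-Hochberg over all genes at 0.05, R 4.3.3), with all 8 libraries of total and polysomal RNA in 1 fit and the 6 of 3′ ends in another. Usage of sites within a gene went through edgeR's diffSpliceDGE, with Simes' p per gene. DESeq2 1.42.0, other filters, a replicate block and leaving out each library were alternatives. Same-numbered 3′ end libraries deviated together, with r of 0.400, 0.657 and 0.515 over genes, each above that with another number, so the blocked value is given beside the result. Levels are TMM-scaled CPM, or FPKM over the union of exons of GENCODE vM21. Window positions were matched to vM21 transcripts by sequence, since listed starts were shifted by up to 2 nt. The scripts were tested on simulated data with planted changes far larger than those of the 9 genes. How often changes of their size would be called was not tested. The rule for the 9 genes used only names, but the genes and lists were chosen with earlier results of these data known. All 9 genes were named throughout, and genes of the wider lists where called or with the most CRAC coverage in their list. A result on the VCP cofactors is not reported here.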

Additional observations from a re-analysis of the deposited data

How the results depend on the processing

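Of 660 values of the 52 changes tested for the 9 genes under alternatives, 599 kept direction and side of the threshold, 58 turned in sign on leaving out a library, 2 turned under another setting and 1 newly passed (*Matr3*, edgeR adjusted p = 0.0105). No gene of the 9 was called by DESeq2, without a filter, with other size factors or with a block. The cause of these shifts was not tested. The intervals given hold the changes compatible with these 2 or 3 libraries per group and are not a limit of detection. A larger change can also go uncalled, as for *Elavl4* with a log2 change of 1.35 in total RNA (edgeR adjusted p = 0.0866). CRAC coverage had no replicates.

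With DESeq2, the number of genes called among all was 1 in total RNA, 3 in polysomal RNA, 67 and 239 in polysomal against total RNA of control and HuD cells and 35 in 3′ end counts. With only the 4 libraries compared, it was 1 in total RNA, 0 (control) and 353 (HuD). The replicate block gave 41 (control), 416 (HuD) and 217 (3′ ends), 251 with merged sites, an alternative chosen after seeing the data, and changed no call on the 9 genes. Deviations of same-numbered total and polysomal libraries correlated with r of 0.188 to 0.387 over 6 pairs of groups, where only 2 numbers exist. Merging sites left 0 calls of usage. Counting every CRAC line gave 33 windows, and a combined p under 0.05 left 0 windows and 0 genes. The control ratio of *Sod1* was 0.0045 with DESeq2 size factors and 0.0046 with DESeq2.

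Leaving out 1 library gave 0 to 1 calls in total RNA, 0 to 372 in polysomal RNA, 0 to 47 for TE, 0 to 2145 (0 to 1 of the 9 genes) and 0 to 411 in polysomal against total RNA of control and HuD cells, 2 to 14 in 3′ ends and 0 to 1 in usage. Turns in sign occurred in 33 changes, none above 0.17 in size in the full fit. In total RNA, log2 changes ranged from -0.062 to 0.17 for *Atxn2*, -0.0045 to 0.23 for *Sqstm1*, -0.12 to 0.14 for *Tardbp*, -0.0082 to 0.068 for *Tbk1*, -0.062 to 0.14 for *Ubqln2* and -0.23 to 0.19 for *Vcp*. In polysomal RNA, they ranged from -0.036 to 0.12 for *Atxn2*, -0.18 to 0.32 for *Matr3*, -0.16 to 0.037 for *Optn*, -0.016 to 0.19 for *Sod1*, -0.29 to 0.12 for *Tardbp* and -0.46 to 0.21 for *Vcp*. For TE, they ranged from -0.14 to 0.10 for *Atxn2*, -0.30 to 0.19 for *Matr3*, -0.11 to 0.15 for *Sqstm1*, -0.30 to 0.11 for *Tardbp* and -0.42 to 0.24 for *Vcp*. Control ratios ranged from -0.076 to 0.16 for *Atxn2*, -0.019 to 0.18 for *Optn*, -0.11 to 0.091 for *Sod1*, -0.015 to 0.14 for *Sqstm1*, -0.14 to 0.28 for *Tardbp*, -0.084 to 0.11 for *Ubqln2* and -0.21 to 0.45 for *Vcp*. HuD ratios ranged from -0.0041 to 0.051 for *Atxn2*, -0.12 to 0.018 for *Optn*, -0.039 to 0.21 for *Sqstm1*, -0.13 to 0.10 for *Tardbp*, -0.049 to 0.13 for *Tbk1* and -0.047 to 0.11 for *Vcp*. In 3′ ends, they ranged from -8.2e-05 to 0.13 for *Sod1*, -0.16 to 0.039 for *Optn* and -0.25 to 0.32 for *Ubqln2*, and without a turn in sign from 0.15 to 0.37 for *Vcp*, 0.10 to 0.32 for *Sqstm1* and -0.35 to -0.12 for *Tbk1*.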

Other observations

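The ratio of CRAC coverage to FPKM (over all exons) was 4.01 reads per FPKM for *Matr3*, whose window is also listed for *Gm28285*. It was 0.654 for *Ubqln2*, 0.517 for *Vcp*, 0.446 for *Sqstm1* and 0.232 for *Tardbp*. These are values of 1 pooled table without replicates. By deletions, the order among the 1304 targets was different, with *Ubqln2* at 277, *Sqstm1* at 596, *Tardbp* at 684, *Vcp* at 790 and *Matr3* at 1047. The number of positions with a listed 7-nt sequence per kilobase of 3′ UTR was 41.9 in *Ubqln2*, 41.5 in *Matr3*, 39.9 in *Tbk1*, 32.9 in *Atxn2*, 26.8 in *Vcp*, 23.7 in *Sqstm1* and 21.3 in *Optn*, against a median of 24.2 over all genes, 33.7 over genes with a window and 23.2 over genes without one. The sequences came from the listed windows, so this number also favors genes with a window.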
